A study of Mus musculus with 6 samples.

Results

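Sox genes encode transcription factors that bind DNA through a shared HMG box, a domain that sits in the minor groove and bends the helix. Described here are 10 of them that mark steps of the neural lineage, out of 54532 genes in the table: Sox2, Sox3 and Sox21 of the B subgroup, Sox4, Sox11 and Sox12 of the C subgroup, Sox6 of the D subgroup, and Sox8, Sox9 and Sox10 of the E subgroup. They were taken by name from the table, and each name matched 1 row. The RNA came from primary neurospheres, floating colonies of neural progenitors, grown from C57BL/6 embryos at E14.5 and collected on day 6 of culture in EGF and bFGF. The labels name the dorsal cortex as their source in one place and the lateral ventricle walls in another. There were 3 libraries from wild-type spheres, WT 3, WT 6 and WT 7, and 3 from spheres labelled Ash2l cKO, KO 1, KO 2 and KO 3. ASH2L is a subunit common to the COMPASS complexes, which methylate histone H3 at lysine 4. According to the series text its gene was deleted with D6-Cre, a transgene whose Cre is active in the dorsal forebrain, so cells from outside that domain would keep the gene. Whether the libraries of a group stem from different embryos or cultures is not stated, so p-values measure only the spread between these libraries. Groups of 3 values are given in the order WT 3, WT 6, WT 7 or KO 1, KO 2, KO 3.

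In the developing cortex the B1 factors, Sox2 and Sox3 among them, are known for keeping progenitors undifferentiated, and Sox21, of subgroup B2, for opposing them. The C factors rise as progenitors commit to the neuronal fate and drive neuronal genes. Sox9 is needed for the start of gliogenesis, Sox8 and Sox10 act in oligodendrocytes, with Sox10 driving myelin genes, and Sox6, which has no transactivation domain of its own, modulates the E factors in oligodendrocyte precursors.

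The subgroup letters follow the sequence of the HMG box, and the shared sequence also bears on counting, because reads from a stretch common to 2 genes cannot be assigned. Shown are the 60 bases that encode the start of the conserved core of the box, 5′ to 3′ on the coding strand, read from GENCODE M21 transcripts. Capitals mark bases that differ from Sox2.
Sox2: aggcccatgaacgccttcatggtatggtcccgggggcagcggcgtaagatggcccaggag
Sox3: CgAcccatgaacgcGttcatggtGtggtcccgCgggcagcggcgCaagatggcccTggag
Sox21: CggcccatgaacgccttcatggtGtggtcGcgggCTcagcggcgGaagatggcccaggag
Sox4: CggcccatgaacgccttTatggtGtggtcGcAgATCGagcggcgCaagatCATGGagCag
Sox11: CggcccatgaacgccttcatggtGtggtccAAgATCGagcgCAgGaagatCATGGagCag
Sox12: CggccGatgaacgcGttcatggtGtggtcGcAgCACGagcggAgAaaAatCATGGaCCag
Sox6: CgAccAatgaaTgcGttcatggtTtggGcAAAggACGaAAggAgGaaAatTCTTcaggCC
Sox8: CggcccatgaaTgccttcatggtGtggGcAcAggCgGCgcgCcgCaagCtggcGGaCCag
Sox9: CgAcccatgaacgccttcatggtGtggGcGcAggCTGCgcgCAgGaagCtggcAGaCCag
Sox10: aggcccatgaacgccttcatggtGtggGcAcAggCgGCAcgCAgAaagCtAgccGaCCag
The stretch lies at chr3:34650548-34650607 in Sox2, chrX:60892936-60892995 in Sox3, chr14:118235549-118235608 in Sox21, chr13:28952782-28952841 in Sox4, chr12:27342199-27342258 in Sox11 and chr2:152397516-152397575 in Sox12, each in the only exon of the transcript read. It lies at chr7:115489703-115489762 in exon 14 of Sox6, chr17:25570163-25570222 in exon 1 of Sox8, chr11:112782903-112782962 in exon 1 of Sox9 and chr15:79163342-79163401 in exon 3 of Sox10. Coordinates are on GRCm38, the assembly that mm10 names, with Sox2 and Sox9 on the plus strand and the others on the minus strand. Members of 1 subgroup differed at 6 to 10 of these 60 bases in 9 pairs, and members of different subgroups at 12 to 24 bases in 36 pairs. Over whole transcripts the longest run of identical bases in any of the 45 pairs was 48, between Sox4 and Sox11. Only a read confined to such a run could match 2 members without a mismatch. How many mismatches the alignment allowed is not stated.

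Total counts ran from 16764480 to 21983659 per library. Ash2l itself measured 116, 114 and 109 CPM (reads scaled to library size, normalised by the TMM method) across WT spheres, and 86.3, 99.3 and 102 CPM across KO spheres. Its log2 fold change of -0.24 missed the threshold of 0.05 (adjusted p = 0.119 in edgeR, by the Benjamini-Hochberg method), and the count over the whole gene includes exons that the deletion may leave in place. On the first principal component of all tested genes, WT 3 stood nearer to the KO libraries than WT 6 and WT 7 did (-25.5 against -81.7 and -85.7, with KO at 53.5 to 76.8). Neural stem cell markers were read in every library, at a summed 3529 to 5526 CPM over 8 genes, of which Vim and Fabp7 were the most abundant and were not called. Of these 8 genes 5 fell (Pax6, Hes5, Msi1, Prom1 and Notch1) and 1, Nes, rose; their median log2 fold change was -0.83. Summed markers of other cells differed between libraries, and their part in the Sox results was not tested. Summed oligodendrocyte markers (7 genes) were at 1704 to 2655 CPM in WT and 77 to 219 CPM in KO, highest of the KO libraries in KO 3. Summed oligodendrocyte progenitor markers (5 genes) were at 2116 to 2530 CPM in WT and 1091, 2065 and 1667 CPM across KO. Summed astrocyte markers (6 genes) were at 1871 CPM in WT 3, 6120 and 5999 CPM in WT 6 and WT 7, and 451 to 676 CPM in KO. Summed neuronal markers (8 genes) were at 2559 CPM in WT 3, 1673 and 1475 CPM in WT 6 and WT 7, and 2371 to 3557 CPM in KO. Mural and meningeal markers (7 genes) stood at 404 CPM in KO 1 against 25.5 to 61.4 CPM elsewhere, and microglial and endothelial markers (5 genes each) summed to at most 9.17 and 6.88 CPM.

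Of the 10 Sox genes 7 were lower in KO spheres and 0 were higher (edgeR quasi-likelihood test, adjusted p below 0.05), while at an unadjusted p below 0.05 Sox11 was the only one higher. All 10 had enough reads to be tested. Across all 16606 genes tested 15.5% were lower and 13.5% higher, 29.0% in all. The 7 were Sox2, Sox21, Sox4, Sox6, Sox8, Sox9 and Sox10, and in these 7 every KO library lay below every WT library, as in 25.2% of all tested genes (48.6% were separated in either direction). The median log2 fold change of the 10 was -1.29, against 0.00 over all tested genes. In spheres, fewer cells of a type and less RNA per cell cannot be told apart.

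**Figure D1:**
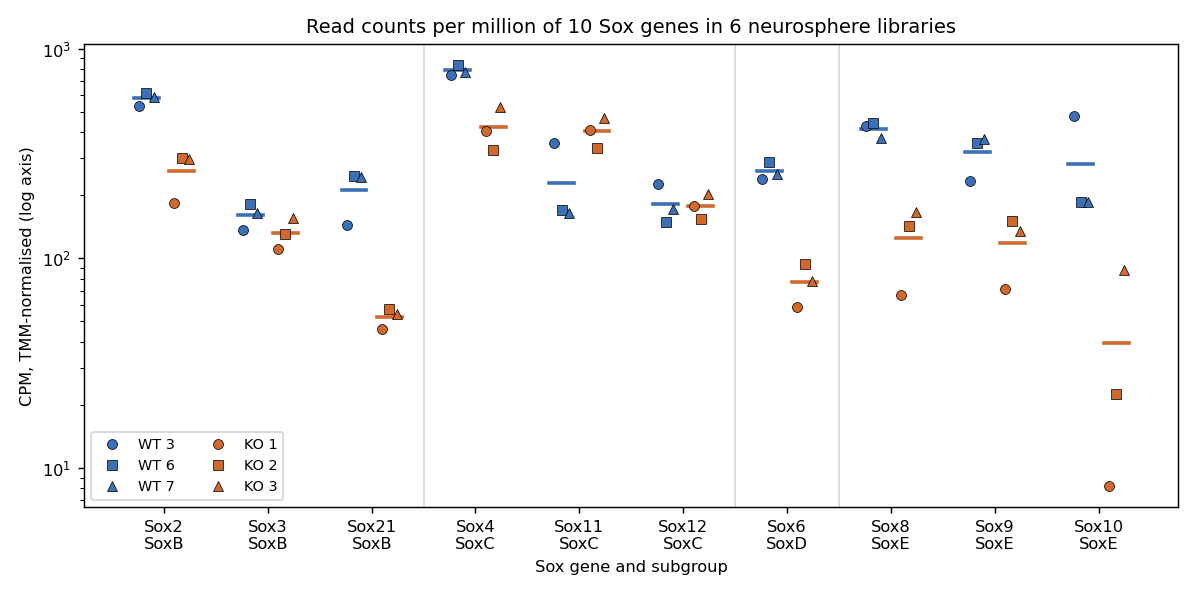
Normalised counts (CPM, log axis) of the 10 Sox genes, in the order of their subgroups. Each point is 1 library, with blue for WT, orange for KO and a symbol for each library, and the bars are group means. Points of WT and KO do not overlap for 7 genes and overlap for Sox3, Sox11 and Sox12.

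The stem cell factors of subgroup B did not move alike. Sox2, the B1 factor that maintains neural stem cells (ENSMUSG00000074637, chr3:34650405-34652461), measured 534, 613 and 588 CPM across WT spheres, and 185, 300 and 299 CPM across KO spheres. All KO libraries were low, KO 1 the lowest. Sox2 fell 2.22-fold (log2 fold change -1.15, SE 0.20, adjusted p = 0.00809). Sox21 (ENSMUSG00000061517, chr14:118233232-118237030), the B2 factor, measured 145, 247 and 245 CPM across WT, then 45.9, 57.3 and 54.4 CPM in KO, in the same order of libraries. The KO libraries lay close together and WT 3 was the lowest of the WT libraries. Sox21 fell 4.04-fold (log2 fold change -2.02, SE 0.22, adjusted p = 0.00211). Sox3 (ENSMUSG00000045179, chrX:60891366-60893430), a B1 gene like Sox2, measured 137, 182 and 165 CPM across WT, then 110, 130 and 156 CPM in KO, and the groups overlapped. Its log2 fold change was -0.29 with a 95% confidence interval from -0.68 to 0.10, and it did not pass (adjusted p = 0.217). The calls of Sox2 and Sox21 held whichever single library was left out, and Sox3 passed when both libraries numbered 3 were left out (log2 fold change -0.52, adjusted p = 0.0211) and under limma-voom (-0.43 at an adjusted p = 0.0282).

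The make-up of subgroup B shifted accordingly. On the FPKM scale, which divides reads by gene length and so allows levels of different genes to be compared, Sox3 held 18.2%, 19.6% and 18.6% of the summed B level across WT spheres. Across KO spheres it held 34.4%, 28.2% and 32.1%. The share of Sox21 went from 13.3% ± 2.46 to 6.87% ± 0.854 (SD, n = 3 each), and that of Sox2 from 67.9% ± 2.97 to 61.6% ± 3.65. The groups of libraries did not overlap for any of these 3 shares. An exact permutation test of 3 against 3 libraries cannot go below p = 0.1, so shares were not tested, and the shares of a subgroup are tied to each other by their sum.

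The neuronal factors of subgroup C went different ways. Sox4 (ENSMUSG00000076431, chr13:28948919-28953713), which acts with Sox11 on neuronal genes and is also present in progenitors, measured 750, 835 and 778 CPM across WT spheres. Across KO spheres it measured 406, 330 and 528 CPM, below every WT library. Sox4 fell 1.87-fold (log2 fold change -0.90, SE 0.19, adjusted p = 0.0135), and without WT 6 its call ended (-0.86, adjusted p = 0.0542). Sox11 (ENSMUSG00000063632, chr12:27334264-27342574), which is strongly expressed in newborn neurons, measured 354, 170 and 165 CPM across WT, then 408, 335 and 465 CPM in KO. WT 3 lay above KO 2 and below KO 1 and KO 3, while WT 6 and WT 7 lay below all KO libraries. Its log2 fold change of 0.81 (SE 0.31, 95% confidence interval 0.07 to 1.55) did not pass (adjusted p = 0.0916), but it passed without WT 3 (1.26, adjusted p = 0.0015), in DESeq2 (0.82 at an adjusted p = 0.0317), under limma-voom (1.10 at an adjusted p = 0.00389) and when no expression filter was used (0.81 at an adjusted p = 0.0345). Sox12 (ENSMUSG00000051817, chr2:152393611-152398063), the third C factor, measured 226, 149 and 172 CPM across WT, then 178, 155 and 203 CPM in KO. The groups were interleaved, and the log2 fold change of -0.03 had a 95% confidence interval from -0.46 to 0.40 and changed sign under several settings.

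Within subgroup C the balance of Sox4 and Sox11 differed between the groups in every library. Sox4 held 62.7%, 76.4% and 73.5% of the summed C FPKM across WT spheres and 48.8%, 47.8% and 52.0% across KO spheres. Sox11 held 17.03%, 8.98% and 8.97% in WT and 28.3%, 28.1% and 26.4% in KO. WT 3 stood between the other WT libraries and the KO libraries in both shares. It was also the WT library with the highest summed neuronal and cell cycle markers, at 318 CPM for 6 cell cycle genes against 185 and 171 CPM in WT 6 and WT 7 and 1537 to 2001 CPM in KO, and the part of these in the shares was not tested.

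To show what lies upstream of the C genes, whose values diverged, the 250 bases before the RefSeq transcript start (GRCm38.p6) follow, 5′ to 3′ on the strand of the gene. Capitals mark matches on either strand to CCAAT, the letters bound by NF-Y, and to ATGCAAAT, the octamer bound by POU factors, which often act beside Sox proteins.
Sox4: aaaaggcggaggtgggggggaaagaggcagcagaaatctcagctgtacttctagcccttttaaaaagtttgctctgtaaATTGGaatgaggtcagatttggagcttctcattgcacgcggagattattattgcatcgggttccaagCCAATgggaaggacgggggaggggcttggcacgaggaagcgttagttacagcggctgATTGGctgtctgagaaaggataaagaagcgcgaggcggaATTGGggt
Sox11: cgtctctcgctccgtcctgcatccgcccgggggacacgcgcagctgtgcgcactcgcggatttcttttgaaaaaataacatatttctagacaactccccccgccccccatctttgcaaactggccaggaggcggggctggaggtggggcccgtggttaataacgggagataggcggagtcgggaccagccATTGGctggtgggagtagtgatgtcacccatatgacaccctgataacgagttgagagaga
Sox12: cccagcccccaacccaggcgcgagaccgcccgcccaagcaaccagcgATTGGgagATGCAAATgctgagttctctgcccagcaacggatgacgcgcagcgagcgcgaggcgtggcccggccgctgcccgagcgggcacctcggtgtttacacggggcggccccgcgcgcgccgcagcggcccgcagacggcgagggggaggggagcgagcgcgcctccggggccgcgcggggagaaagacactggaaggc
They cover chr13:28953700-28953949, chr12:27342719-27342968 and chr2:152398047-152398296, all on the minus strand. CCAAT was found 4 times before Sox4, and once each before Sox11 and Sox12, and in 33.8% of 32851 RefSeq windows of the same length it occurs at least once. ATGCAAAT was found once, before Sox12, and in 1.6% of all windows. ACAAAG and AACAAT, letters that Sox proteins can bind, were found in none of these 3 windows. ACAAAG occurred once before Sox2 and once before Sox6, and in 16.5% of all windows, and AACAAT in none of the 7 members matched and in 9.42% of all windows. The C windows held 11, 17 and 35 CpG dinucleotides in Sox4, Sox11 and Sox12, where the median of all windows was 6. Sox2, Sox21, Sox8 and Sox6 held 27, 17, 18 and 9. Windows were found for 7 of the 10 genes, not for Sox3, Sox9 and Sox10, and the RefSeq starts of Sox2 and Sox11 lie upstream of the starts in the table. The RefSeq starts of Sox4, Sox12 and Sox6 lie downstream of them. Their windows thus reach into the gene span of the table, and the last CCAAT match of Sox4 lies in that part.

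Sox6 (ENSMUSG00000051910, chr7:115470872-116038796), the D factor, fell in a narrow range. It measured 238, 287 and 254 CPM across WT spheres and 58.9, 94 and 78 CPM across KO spheres. All KO libraries were well below all WT libraries, and the change was 3.37-fold (log2 fold change -1.75, SE 0.18, adjusted p = 0.00185), kept whichever library was left out. Sox5, the other large D gene of glial precursors and neurons and not among the 10, measured 85.8, 87.9 and 89.9 CPM across WT, then 86.9, 79.6 and 88.3 CPM in KO. Its log2 fold change of -0.05 (SE 0.09, adjusted p = 0.704) was 0.01 with library totals only and on both FPKM scales, so it has no stable sign. Sox13, the third D gene, was at 12.5 ± 2.24 and 11.7 ± 1.25 CPM (log2 fold change -0.10, adjusted p = 0.739), with 0.03 when WT 7 was left out.

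All 3 glial factors of subgroup E fell. Sox8 (ENSMUSG00000024176, chr17:25565892-25570686), a factor of oligodendrocyte differentiation, measured 430, 443 and 374 CPM across WT spheres, and 67.1, 143 and 167 CPM across KO spheres. KO 1 was the lowest and WT values were close together. Sox8 fell 3.31-fold (log2 fold change -1.73, SE 0.32, adjusted p = 0.0091), in every leave-one-out fit as well. Sox9 (ENSMUSG00000000567, chr11:112782224-112787760), the factor of the gliogenic switch that also stays on in astrocytes, measured 234, 355 and 372 CPM across WT, then 71.8, 150 and 135 CPM in KO. WT 3 was the lowest WT library, as it was for summed astrocyte markers. Sox9 fell 2.69-fold (log2 fold change -1.43, SE 0.30, adjusted p = 0.0151), but its call ended without WT 6 (-1.36, adjusted p = 0.0544) or WT 7 (-1.31, adjusted p = 0.0504).

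Sox10 (ENSMUSG00000033006, chr15:79154908-79165240), the factor that drives myelin genes, spread widely in both groups. It measured 475 CPM in WT 3, 186 CPM in WT 6 and 185 CPM in WT 7, and 8.19, 22.5 and 87.5 CPM across KO spheres. WT 3 was the highest WT library and KO 3 the highest KO library, and both were also the highest of their group in summed oligodendrocyte markers. Sox10 had the largest fall of the 10, 7.13-fold, and the widest interval (log2 fold change -2.83, SE 0.85, 95% confidence interval -4.85 to -0.82, adjusted p = 0.0456). Its call ended without WT 3 (-2.23, adjusted p = 0.0593), WT 6 (-3.07, adjusted p = 0.0812), WT 7 (-3.07, adjusted p = 0.0759), KO 1 (-2.34, adjusted p = 0.077) or KO 2 (-2.55, adjusted p = 0.141), and the value was -4.17 without KO 3.

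The shares within subgroup E overlapped between the groups. Sox10 held 44.4%, 21.1% and 22.4% of the summed E FPKM across WT spheres, and 6.46%, 8.25% and 25.0% across KO spheres. KO 3 thus had a larger Sox10 share than WT 6 and WT 7. Sox8 held 44.3% ± 4.93 in WT and 49.9% ± 2.79 in KO, and Sox9 26.4% ± 9.01 and 36.9% ± 7.43 (SD, n = 3 each).

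**Figure D2:**
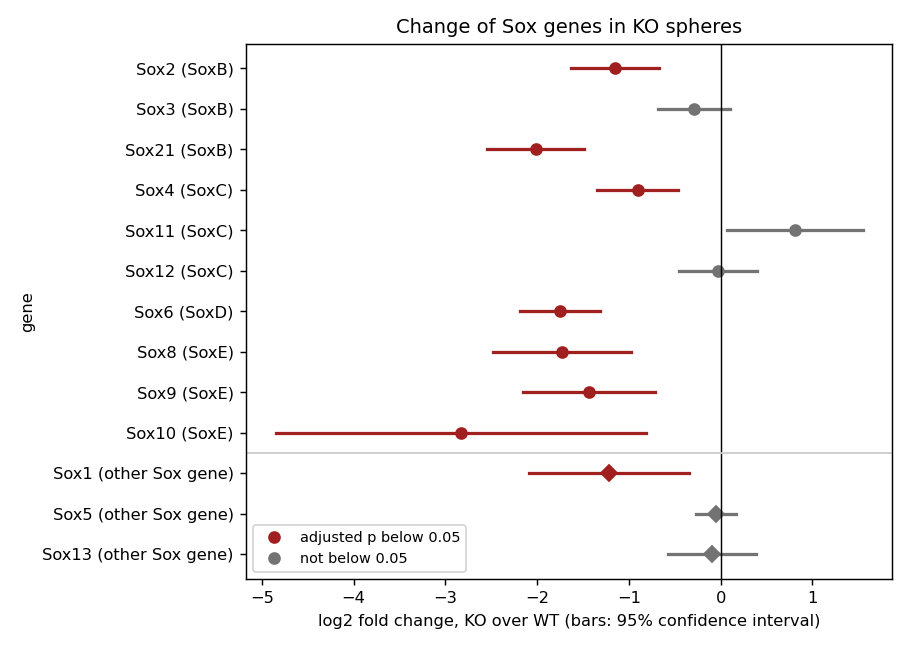
Log2 fold change of KO over WT from the edgeR fit, with 95% confidence intervals, for the 10 Sox genes (circles) and the 3 other Sox genes with enough reads (diamonds). Red marks an adjusted p below 0.05. Sox10 has the lowest value, at -2.83, and the widest interval, and Sox11 has the highest value, at 0.81, and is not called.

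Set side by side, KO levels relative to WT were lowest for the glial subgroups E and D and highest for the neuronal subgroup C. The summed FPKM of subgroup E was 298 ± 50.7 in WT and 83.2 ± 36.9 in KO, so KO held 28.0% of the WT level. The single D gene stood at 30.9%. The summed FPKM of subgroup B was 405 ± 32.8 in WT and 208 ± 41.4 in KO, or 51.4%. For subgroup C it was 228 ± 22.2 and 180 ± 33.3 (SD, n = 3 each), or 78.8%, and KO 3, at 213, lay above WT 7, at 212. WT and KO libraries did not overlap for B, D and E. FPKM is scaled to library totals without TMM, whose factors were 1.0079 for KO 3 and 0.9623 for WT 7. The overlap for C therefore depends on this scale. The subgroups were not tested against each other, since genes of a subgroup are no replicates.

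Over all 10 genes the summed level in KO was 50.3% of that in WT, at 994, 947 and 902 FPKM across WT spheres and 388, 471 and 570 FPKM across KO spheres. Of this sum, subgroup C held 24.0% ± 1.28 in WT and 38.3% ± 7.71 in KO, without overlap, and subgroup E 31.3% ± 3.88 and 16.9% ± 5.04, also without overlap. The share of subgroup B was 42.9% ± 4.99 in WT and 43.7% ± 3.93 in KO (SD, n = 3 each), and its groups overlapped.

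**Figure D3:**
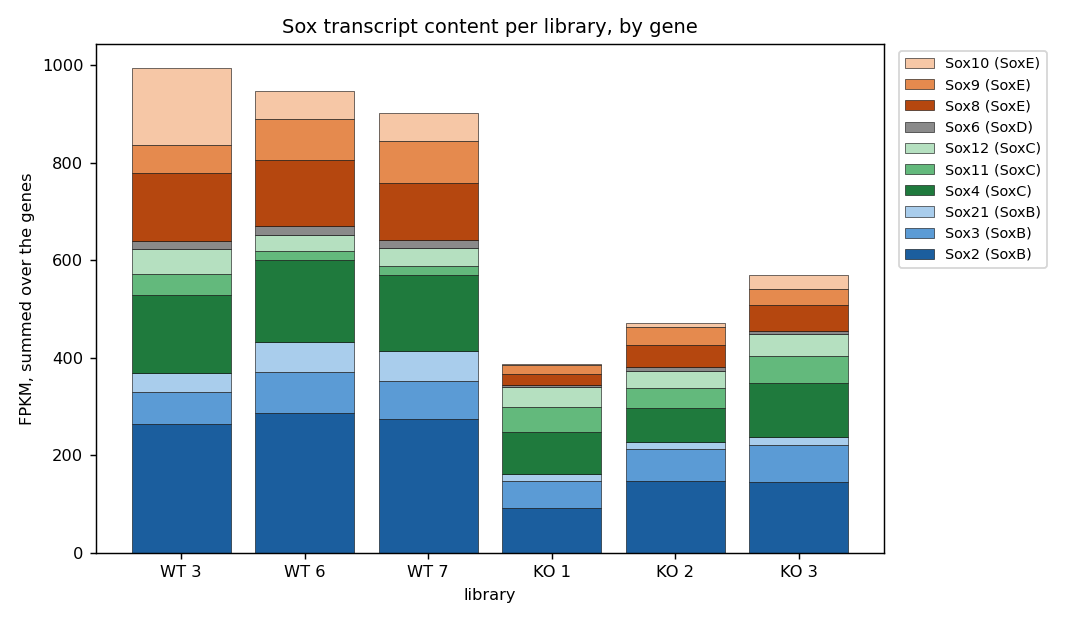
FPKM of the 10 Sox genes stacked for each library, with blue shades for subgroup B, green for C, grey for D and orange for E. The WT stacks reach 902 to 994 FPKM and the KO stacks 388 to 570 FPKM, with the orange part thin in KO 1.

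The order of the levels changed too. In WT, Sox2 was the highest at 275 ± 11.2 FPKM, followed by Sox4 at 161 ± 5.85 and Sox8 at 131 ± 13.3, with no overlap of library ranges between Sox2 and Sox4 or between Sox4 and Sox8. Sox8, Sox10 (91.5 ± 57.5), Sox3 (76.2 ± 8.88), Sox9 (75.4 ± 15.7), Sox21 (54.4 ± 13.6), Sox12 (40.2 ± 10.1) and Sox11 (27.3 ± 13.8) followed, and each of these overlapped its neighbour in the order. Sox6 was the lowest at 17.1 ± 1.29, below all values of Sox11. In KO, Sox2 (129 ± 31.3) and Sox4 (89.5 ± 20.5) were still first and second, Sox3 (65.1 ± 10.3) and Sox11 (49.4 ± 7.71) came next, and Sox8 (40.9 ± 16.6), Sox12 (40.8 ± 5.32) and Sox9 (29.2 ± 9.99) followed. Sox21 (14.1 ± 1.44), Sox10 (13.1 ± 13.9) and Sox6 (5.28 ± 1.17) were last (SD, n = 3 each). In KO the 1 pair of neighbours with no overlap was Sox9 and Sox21. By group means Sox11 thus stood in place 9 of 10 in WT and place 4 in KO, and Sox10 in place 4 and place 9. The WT place of Sox10 rests on WT 3, at 158 FPKM. In WT 6 and WT 7, at 58.4 and 58.3 FPKM, Sox10 lay below Sox3, Sox9 and Sox21.

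The protein-coding genes whose profile over the 6 libraries was nearest to a Sox gene were found by the root mean square difference of centred log2 CPM, among 12461 genes with a mean of at least 2 CPM. For Sox2 they were Zfand1 (0.07), Fads1 (0.07) and Mpst (0.08). For Sox21 they were Slc15a2 (0.06), a peptide transporter, Bckdha (0.10) and Ttyh2 (0.10), and for Sox6 Bcan (0.07), the brain proteoglycan brevican, Naprt (0.10) and Galnt16 (0.12). The nearest genes of Sox4 were Paxx (0.07), Jmjd8 (0.07) and Uvssa (0.07), and those of Sox11 were Dpf1 (0.07), a neuronal BAF complex subunit, Aldh1b1 (0.07) and Map2k6 (0.08). Sox9 was nearest to Sat2 (0.11), Myh14 (0.12) and Hepacam (0.12), a glial adhesion gene, and Sox8 to Pmel (0.15), Hebp1 (0.16) and Sh3bp4 (0.17). No close match existed for Sox10, whose nearest genes were Lims2 (0.46), Asic4 (0.47) and Neurog2 (0.50). Sox3 was near to Serf2 and Chmp2a (0.04 each) and Sox12 to Itpkc (0.05), Sntb2 (0.06) and Prorsd1 (0.06). Distances are small for genes that vary little. Among the 10 themselves the smallest distance was between Sox2 and Sox9 (0.24), then between Sox21 and Sox6 (0.25), each pair from different subgroups, and the largest between Sox11 and Sox10 (2.30).

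Genes known as partners or targets of Sox factors are given next. Together with 9 other Sox genes, described last, their lists held 80 genes, of which 65 had enough reads. Of these 65, 26 fell, Sox1 among them, and 6 rose, with a gene in several lists counted once. Of all tested genes 15.5% were lower and 13.5% higher, the shares to set beside the counts of each list below. The number higher was 15 without WT 3 and 3 without WT 6, WT 7, KO 1 or KO 2. Among 14 partner factors 6 were lower and 1, Nfib, was higher (0.49, adjusted p = 0.0303), and the median log2 fold change was -0.25. Leaving out 1 library in turn gave 0 to 2 partners higher. The POU factor Pou3f1 stood at 2.16 and was not called (SE 0.68, adjusted p = 0.0527). The progenitor factor Pax6 (-1.24, SE 0.10), the POU factor Pou3f2, a partner of Sox2 (-0.82, SE 0.15), and the chromatin remodeller Chd7 (-1.20, SE 0.21) fell, as did Myrf, which acts with Sox10 on myelin genes (-3.91, SE 0.71, and -5.13 without KO 3). Adjusted p-values of these 4 lay between 0.000999 and 0.0088 (edgeR).

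Among 9 tested genes linked to the B1 factors 3 rose and 3 fell, with a median of 0.00. Nes, an intermediate filament gene with a Sox2-bound enhancer, rose by 2.21 (SE 0.26), from 138, 171 and 93.8 CPM across WT spheres to 577, 769 and 525 CPM across KO spheres. Ccnd1, the G1 cyclin, rose by 4.40 (SE 0.19). The Notch effector Hes5 (-2.97, SE 0.38) and the stem cell receptor Nr2e1 (-0.89, SE 0.12) fell. Nes and Sox2, both markers of neural stem cells, thus moved in opposite directions.

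Among 10 genes linked to the C factors 1 rose and 0 fell, against 13.5% and 15.5% of all tested genes. The 10 had a median of 0.86, and none fell at an unadjusted p below 0.05 either in this edgeR fit. Without WT 3 the number higher was 7, and without WT 6, WT 7, KO 1 or KO 2 it was 0. It was 5 when no filter was used, 3 in DESeq2, 7 under limma-voom, and 4 and 3 on the FPKM scales. The growth cone gene Gap43 rose by 1.67 (SE 0.44, adjusted p = 0.0296), in a call that ended without WT 6, WT 7, KO 1, KO 2 or KO 3 and with a value of 2.38 without WT 3. Tubb3 measured 438, 167 and 118 CPM across WT, then 768, 508 and 641 CPM in KO, with WT 3 nearest to KO as for Sox11. It did not pass (1.41, adjusted p = 0.0636), but it was called in 7 of 14 alternatives, among them without WT 3 (2.16, adjusted p = 0.00075), in DESeq2 and under limma-voom. Tead2 did not pass (0.57, adjusted p = 0.112), but did without WT 3 (0.78, adjusted p = 0.0261) and under limma-voom (0.77, adjusted p = 0.0196). Elavl4 did not pass (0.34, adjusted p = 0.0982).

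Glial genes linked to the E factors were lower. Among 10 astroglial genes linked to Sox9 5 fell and 0 rose, with a median of -1.39. Apcdd1 (-1.90, SE 0.24) and Mmd2 (-2.25, SE 0.26), which Sox9 and NFIA are known to activate together, fell, as did Gfap (-4.32, SE 0.71) and S100b (-3.60, SE 0.40). Zcchc24, also on this list, was not called (-0.50, adjusted p = 0.1855), and its groups overlapped. Nfia itself, the partner, stood at -0.12 (adjusted p = 0.58). Among 12 tested oligodendroglial genes 8 fell and 0 rose (1 without WT 3), with a median of -2.69. Cnp (-3.42, SE 0.36), Ugt8a (-3.28, SE 0.36) and the precursor receptor Pdgfra (-1.93, SE 0.23) fell. Olig2 and Olig1, factors of the oligodendrocyte lineage, were at 588 ± 73.1 and 907 ± 155 CPM in WT and 578 ± 161 and 839 ± 288 CPM in KO spheres (SD, n = 3 each), and neither was called (adjusted p = 0.942 and 0.766, edgeR).

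Outside the nervous system D and E factors drive cartilage and neural crest genes. Among 6 tested cartilage genes 2 fell and 0 rose, with a median of -1.21, namely Col9a1 (-2.69, SE 0.48) and Matn1 (-2.21, SE 0.44, only 1.82 CPM in WT), while Col11a2 (-1.31, adjusted p = 0.0569) and Acan (1.31, adjusted p = 0.0689) did not pass. The call of Matn1 ended without KO 2 (adjusted p = 0.0556). Without WT 3, Col11a2 was at -0.70 and Acan was called (1.82, adjusted p = 0.0184). Among 8 neural crest and Schwann genes only 3 had enough reads, of which Mitf (-1.32, SE 0.24) and Pmel (-1.82, SE 0.36) fell and Ngfr (3.37, SE 0.41) rose. The call of Pmel ended without WT 6 (-1.72, adjusted p = 0.0512), and Ngfr was at 3.9965 without WT 3. Foxd3, a defining neural crest gene, had 0 reads in 5 libraries and 0.05 CPM in KO 2.

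**Figure D4:**
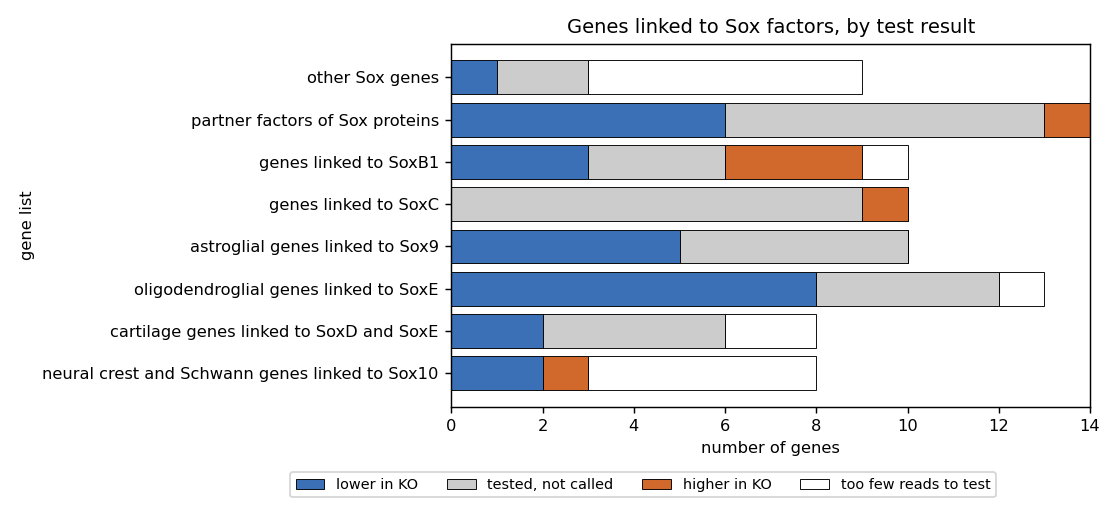
Number of genes in each list that were lower in KO (blue), higher in KO (orange), tested and not called (grey) or too rarely read to be tested (white). Oligodendroglial genes have the most lower calls, 8, and genes linked to subgroup C have 0 lower calls, where 15.5% of all tested genes were lower.

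Of 9 other Sox genes 3 were tested, Sox1, Sox5 and Sox13, and 1 fell. Sox1, the third B1 gene, measured 46.1, 95.3 and 113 CPM across WT spheres and 26.1, 50.3 and 33.3 CPM across KO spheres. WT 3 lay below KO 2, so the groups overlapped. Its log2 fold change was -1.22 (SE 0.37, adjusted p = 0.047 by edgeR), and the call ended with RLE size factors or library totals, on both FPKM scales, and without WT 6, WT 7, KO 1, KO 2 or KO 3. Sox7, Sox17 and Sox18, factors of endothelium, and Sox15 and Sox30 stayed at or below 1.04 CPM in every library. Sox14 had 0 reads in all 6 libraries, which allows up to 0.136 to 0.179 CPM per library.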

How the data were processed

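Gene-level values of 6 neurosphere libraries were used. The authors deposited whole-number read counts per gene, not normalised, and FPKM values made from gene length and library total. Per the submitters' processing notes the tools were HISAT2 2.0.5, featureCounts 1.5.0-p3 and DESeq2 1.16.1 on mm10, and no source used here gives settings, strand use or annotation. Deposited FPKM and counts agree within 0.05 reads for all 10 Sox genes. Groups and replicate numbers come from the titles. All 6 libraries were fitted together in edgeR 4.0.16 (R 4.3.3), with TMM, filterByExpr defaults (16606 genes) and the two-sided quasi-likelihood F test, Benjamini-Hochberg over all tested genes, threshold 0.05. SE is the absolute log2 fold change divided by the square root of F. Every adjusted p without a named tool is from this fit. The common biological coefficient of variation was 26.5%.

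The members, lists and tests were chosen with earlier results of these data known. Named were the 10 Sox genes, tested other Sox genes, up to 4 genes with the lowest p in each list, and 3 nearest genes for each Sox gene (log2 CPM with a prior count of 2). Some genes that this rule names are not reported here. Nfia, Nfib, Pou3f1, Zcchc24, Olig1, Olig2 and Foxd3 were named after their values were seen. The spans of Sox1, S100b, Cnp, Pmel and Nfia overlap another gene with over 10% of their mean count. So do those of Sox15, Shh and Hapln1, which had too few reads to be tested. The span of Sox2 lies within Sox2ot, and in all these genes reads may be shared. The overlapping gene of S100b, Dip2a, had 984% of its mean count. Those of Pmel, Dgka and Cdk2, had 896% and 2412%, and all 3 lie on the opposite strand. The script was tested on simulated counts. DESeq2 was 1.42.0 and limma 3.58.1, and genes on FPKM scales needed a mean of 0.5.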

Additional observations from a re-analysis of the deposited data

How the results depend on the processing

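No paired analysis was possible because WT and KO share only the replicate number 3. The log2 fold changes of the Sox genes among the 10 other than Sox12 kept their direction in the 14 alternatives run, and the calls of Sox2, Sox21, Sox6 and Sox8 held in all 14. Leaving out 1 library in turn gave log2 fold changes of -1.25 to -0.92 for Sox2, -0.41 to -0.15 for Sox3, -2.23 to -1.90 for Sox21, -1.09 to -0.75 for Sox4, 0.62 to 1.26 for Sox11, -0.16 to 0.15 for Sox12, -1.63 to -1.14 for Sox9, -4.17 to -2.23 for Sox10 and -0.22 to 0.0293 for Sox13. Sox12 was at 0.0225 with library totals, 0.0918 with limma-voom, 0.0408 and 0.0422 on FPKM scales (pseudocounts of 1 and 0.1) and 0.0583 without both libraries numbered 3. Sox5 was at 0.0121 with library totals and 0.0088 and 0.0099 on FPKM scales. Without a filter the median of all genes was 0.14. Sox11 was called at 0.81 without a filter, 0.82 with DESeq2, 1.10 with limma-voom and 1.1597 without both libraries numbered 3, an alternative chosen after seeing the data, and Sox3 at -0.43 with limma-voom and -0.52 without both. The number of Sox genes called lower was 4 to 7 without 1 library (4 without WT 6, 5 without WT 7), and the number called higher 0 to 1, with 1 without a filter, with DESeq2, with limma-voom and without both libraries numbered 3. Over all genes 1027 to 3500 were higher and 1151 to 3141 lower without 1 library, 4133 and 3919 with limma-voom, and 3842 higher without both. Of the listed partners and targets 3 to 15 were higher without 1 library, 12 without a filter, 10 with DESeq2, 15 with limma-voom and 17 without both. With shares of raw counts in place of FPKM, the difference of KO from WT was -10.0 percentage points for Sox21 in subgroup B, against -6.42, and 21.6 for Sox11 in subgroup C, against 15.9. With fewer libraries fewer degrees of freedom remain. The cause of the other differences was not tested.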

Other observations

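Long noncoding RNAs at the Sox loci were also read, and were picked for their overlap with a Sox gene after their values were seen. Sox2ot, whose span (chr3:34104270-34682619) covers Sox2 on the same strand, measured 36.8, 19.1 and 22.4 CPM across WT spheres and 6.8, 6.64 and 9.55 CPM across KO spheres. No KO library reached the lowest WT value, and the change was -1.76 on the log2 scale (SE 0.30, adjusted p = 0.00684 by edgeR). Sox1ot, which overlaps Sox1 on the same strand, measured 11.7, 14.9 and 17.9 CPM across WT, then 1.96, 3.73 and 1.28 CPM across KO (-2.68 on the log2 scale, SE 0.42, adjusted p = 0.00527). Sox6os, antisense to Sox6, averaged 0.932 ± 0.341 CPM in WT spheres and 0.228 ± 0.135 CPM in KO spheres (SD, n = 3 each, adjusted p = 0.0307 in edgeR), and Gm4675, antisense to Sox21, at 5.2 ± 1.52 and 1.88 ± 1.11 CPM (adjusted p = 0.0776). Sox2ot had 3.96% as many reads as Sox2 and Sox1ot 14.1% as many as Sox1, and how reads in a shared span were assigned is not stated in any source used here.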
